A study of Mus musculus with 8 samples.

Results

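Replication-dependent histone genes were taken as all genes whose symbol starts with Hist1h, Hist2h, Hist3h or Hist4h after matching the Ensembl gene IDs to symbols. This gave 68 genes, of which 3 annotated pseudogenes were left out, so that 65 of 45706 genes remained. They comprised 6 genes for the linker histone H1, 18 for H2A, 16 for H2B, 12 for H3 and 13 for H4. By cluster, 52 belonged to Hist1 on chromosome 13, 10 to Hist2 on chromosome 3, 2 to Hist3 on chromosome 11 and 1 to Hist4 on chromosome 6. A filter on low counts left 54 members among 16258 genes for testing.

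Replication-dependent histone genes supply the bulk of new histone protein while DNA is copied. Most of their mRNAs end in a stem-loop that is bound by the stem-loop binding protein Slbp, in place of a poly(A) tail, and their transcription in S phase depends on the coactivator Npat. The histone variants H3.3 and H2A.Z are made outside S phase as well, from genes with ordinary polyadenylated mRNAs, and the chaperone HIRA deposits H3.3 independently of replication.

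The study measured RNA and open chromatin (ATAC-seq, which maps sites where a transposase can cut) in LSK cells of C57BL/6 mouse bone marrow. These cells, which lack lineage markers and carry Sca1 and Kit on their surface, include the haematopoietic stem cells and early progenitors. Each assay had 2 libraries of each genotype label, WT and Hira KO, where KO stands for a conditional knockout of Hira. The Cre line that drove the deletion, the mice's age and sex, and whether libraries came from separate mice are not given in the sources used here, so p-values measure the spread between these libraries.

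In the libraries labelled as its knockout, Hira was not lower. Its level in CPM (counts over the TMM-scaled library total, in M) was 24.4 and 23.3 with the KO label and 16.5 and 17.2 with the WT label. The log2 fold change was 0.50 (SE 0.19, edgeR adjusted p 0.180, n = 2 and 2). The deposited file names also carried the genotype opposite to the titles. Every direction below thus rests on the titles, and the groups are named by their labels. Counts over the whole gene can include exons outside the deleted stretch, so they check the labels only in part.

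The RNA libraries held 16.6 to 19.8 M counts, of which mitochondrial genes took 40.8% to 53.1%. Labelled Hira KO replicate 2 stood apart in AY036118, with 6 counts against 86174 to 108841 in the other libraries. Labelled WT replicate 2 differed from the other libraries in sex-linked transcripts, with Ddx3y, on the Y chromosome, at 906 counts against at most 2. Xist, on the X chromosome, was at 1470 counts there against 169234 to 232764. By these transcripts the labelled WT libraries differed in sex and the labelled Hira KO libraries did not, so sex was not balanced between the groups. The part of sex in the histone levels was not tested. Values are given for each library below, and the sums, the counts of calls and the genes that replicate 2 moved most also without it.

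To show what the promoters of the 5 histone types hold, RefSeq windows (build GRCm38.p6) from 250 bases before to 50 after the annotated gene start are printed for 1 gene of high level per type, or the called gene for H3, and for Hist3h2a. The windows lie at chr13:21780576-21780875 (Hist1h1b, minus strand), chr13:23750838-23751137 (Hist1h2ab, plus), chr13:23574158-23574457 (Hist1h2bf, minus), chr3:96239078-96239377 (Hist2h3c2, minus), chr13:23581318-23581617 (Hist1h4d, plus) and chr11:58954435-58954734 (Hist3h2a, plus). Capitals mark matches, on either strand, to the TATA box TATAAA, the CCAAT box, the octamer ATTTGCAT, the H1-type element AAACACA, the H4-type element GGTCCG, and the E2F-like strings TTTCGCGC and CGCCAAA.
Hist1h1b: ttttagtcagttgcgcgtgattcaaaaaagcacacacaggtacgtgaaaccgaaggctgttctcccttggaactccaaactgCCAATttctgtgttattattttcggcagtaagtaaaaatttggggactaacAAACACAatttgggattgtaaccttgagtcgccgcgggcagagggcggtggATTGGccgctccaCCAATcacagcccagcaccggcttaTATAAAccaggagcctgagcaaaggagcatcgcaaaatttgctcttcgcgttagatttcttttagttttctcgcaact
Hist1h2ab: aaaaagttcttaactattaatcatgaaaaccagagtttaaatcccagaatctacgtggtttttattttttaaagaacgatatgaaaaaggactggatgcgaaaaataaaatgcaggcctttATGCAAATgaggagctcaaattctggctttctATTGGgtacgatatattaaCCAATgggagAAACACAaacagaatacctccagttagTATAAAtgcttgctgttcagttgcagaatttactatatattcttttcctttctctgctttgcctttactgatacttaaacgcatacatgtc
Hist1h2bf: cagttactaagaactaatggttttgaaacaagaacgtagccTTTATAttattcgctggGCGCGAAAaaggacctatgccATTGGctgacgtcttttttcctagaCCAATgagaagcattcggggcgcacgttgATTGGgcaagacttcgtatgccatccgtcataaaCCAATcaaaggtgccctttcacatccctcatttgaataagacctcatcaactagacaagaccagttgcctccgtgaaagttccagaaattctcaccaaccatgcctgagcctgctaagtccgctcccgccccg
Hist2h3c2: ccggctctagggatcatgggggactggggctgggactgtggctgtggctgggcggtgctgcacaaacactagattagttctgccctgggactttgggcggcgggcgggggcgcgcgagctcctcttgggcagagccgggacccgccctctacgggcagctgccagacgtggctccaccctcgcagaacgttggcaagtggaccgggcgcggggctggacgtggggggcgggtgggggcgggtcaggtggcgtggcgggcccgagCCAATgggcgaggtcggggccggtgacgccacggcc
Hist1h4d: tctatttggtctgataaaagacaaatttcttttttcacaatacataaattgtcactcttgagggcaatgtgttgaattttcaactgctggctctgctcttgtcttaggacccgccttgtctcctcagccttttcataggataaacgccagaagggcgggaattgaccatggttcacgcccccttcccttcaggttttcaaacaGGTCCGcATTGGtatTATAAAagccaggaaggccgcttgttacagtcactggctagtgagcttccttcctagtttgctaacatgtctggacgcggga
Hist3h2a: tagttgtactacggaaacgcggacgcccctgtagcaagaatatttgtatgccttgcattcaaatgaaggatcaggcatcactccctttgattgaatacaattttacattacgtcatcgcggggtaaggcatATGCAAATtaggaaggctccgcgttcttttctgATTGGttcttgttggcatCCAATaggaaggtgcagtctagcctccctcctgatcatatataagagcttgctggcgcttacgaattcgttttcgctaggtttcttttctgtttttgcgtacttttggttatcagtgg

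The motifs divided the histone types. At least 1 promoter window was found for 60 of the 65 members (61 windows), and 32851 windows of the same length made up the table. CCAAT was present in all 49 windows of H1, H2A, H2B and H3 genes (6, 18, 15 and 10) but in 3 of 12 H4 windows, against 37.4% of all windows. GGTCCG had the opposite distribution, with 11 of 12 H4 windows, 1 of 10 H3 windows and no other, against 8.25% of all windows. ATTTGCAT was in 7 of 18 H2A and 6 of 15 H2B windows and in no window of the other types (1.74% of all windows). Its longer form ATTTGCATA, which contains it, was in 6 and 5 of these (0.627%). H2A and H2B genes often lie head to head, and 3 of the 7 H2A windows with the octamer overlapped an H2B window. AAACACA was in 5 of 6 H1 windows, 2 of 18 H2A windows and 1 of 15 H2B windows (7.18% of all windows). TATAAA occurred in every type, in 4 of 6, 11 of 18, 8 of 15, 4 of 10 and 8 of 12 windows in the order H1, H2A, H2B, H3 and H4 (13.6%). TTTCGCGC was found in 5 H2A and 4 H2B windows (0.323%), and CGCCAAA in none (1.56%). These are matches of letters within the windows and carry no measure of binding.

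Summed over all 65 members, the histone mRNA level was close in 3 libraries and low in the fourth. The sum was 2126 and 1736 TPM (transcripts per M, scaled for length) in labelled WT and 1773 and 573 TPM in labelled Hira KO replicates 1 and 2. In TPM, labelled Hira KO replicate 1 thus lay between the labelled WT libraries, and replicate 2 lay below them. In CPM the sums were 489 and 495 against 460 and 215. In TPM rescaled without mitochondrial genes they were 3886 and 3852 against 3460 and 1273. On these scales labelled Hira KO replicate 1 was also below labelled WT, by much less than replicate 2. The group means were 1931 ± 276 and 1173 ± 849 TPM (SD, n = 2 each), a log2 ratio of -0.72. Without replicate 2 the log2 ratio was -0.12, and without replicate 1 it was -1.75. Members took 0.0941% and 0.0943% of all non-mitochondrial counts in labelled WT, against 0.0888% and 0.0393% in labelled Hira KO. In such bulk RNA, fewer cells in S phase and less histone mRNA per cell cannot be told apart. The low library, labelled Hira KO replicate 2, was also the one with 6 counts of AY036118. How far library preparation entered these sums was not tested.

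**Figure D1:**
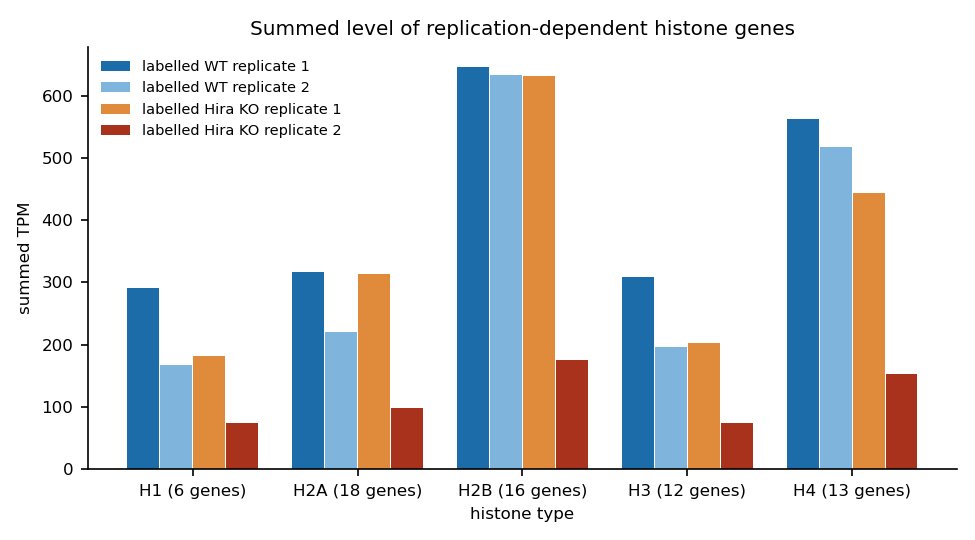
Summed TPM (vertical axis) of the member genes of each histone type (horizontal axis), with 1 bar per library and no error bars. Labelled Hira KO replicate 2 has the lowest bar in all 5 types, and labelled Hira KO replicate 1 lies above the lower labelled WT library for H1, H2A and H3.

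The same library was low in all 5 types. H1 genes summed to 292 and 167 TPM in labelled WT and 182 and 74.2 TPM in labelled Hira KO. H2A genes summed to 317 and 221 against 314 and 98.2 TPM. H2B genes gave the largest sum of any type, 646 and 633 TPM in labelled WT and 631 and 175 TPM in labelled Hira KO. For H3 the sums were 309 and 197 against 203 and 73.6 TPM. H4 genes summed to 563 and 518 against 444 and 152 TPM. In TPM the groups overlapped for H1, H2A and H3, where labelled Hira KO replicate 1 exceeded labelled WT replicate 2. For H2B and H4 both labelled Hira KO libraries were below both labelled WT libraries in TPM, for H2B by a small margin in replicate 1. The overlap depended on the scale. In CPM, H1 (117 and 86.4 against 79.5 and 46.2) and H3 (90.7 and 79.3 against 70.6 and 32.4) did not overlap. H2B did (127 and 163 against 152 and 63.5). H2A overlapped and H4 did not on either scale. TPM rescaled without mitochondrial genes gave the same overlaps as CPM. Without replicate 2 the log2 ratios of the group mean TPM were -0.34 for H1, 0.22 for H2A, -0.02 for H2B, -0.32 for H3 and -0.29 for H4. The makeup by type changed little between libraries: H2B took 30.4% to 36.5% of the summed TPM, H4 25% to 29.8%, and H1, H2A and H3 each 9.64% to 17.7%.

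By cluster, Hist1 genes summed to 1868 and 1559 TPM in labelled WT and 1629 and 505 TPM in labelled Hira KO, and so followed the whole set. Hist2 genes summed to 253 and 171 against 128 and 62.2 TPM, without overlap. Within Hist2, the 3 H3 genes were the furthest apart, at 124 and 68.9 against 40.7 and 13.7 TPM. The 9 Hist1 H3 genes stood at 185 and 128 against 162 and 59.9 TPM, with labelled Hira KO replicate 1 between the labelled WT libraries. Hist3 genes were low throughout, at 4.18 and 4.37 against 14.9 and 5.11 TPM, and higher in labelled Hira KO through Hist3h2a. No test was made between clusters.

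The design asks which histone genes differ between the genotypes. edgeR's quasi-likelihood test with Benjamini-Hochberg adjustment over 16258 genes called 1 of 54 members higher, Hist1h2bc, where 1.32% of all tested genes were called higher. It called 1 of 54 lower, Hist2h3c2, where 0.48% of all were called lower. The fitted log2 fold change was below 0 for 38 members, as it was for 49.1% of all genes tested, and above 0 for 16. Its median was -0.67 over the members (quartiles -1.02 and 0.06) against 0.01 over all genes tested. Both labelled Hira KO libraries lay below both labelled WT libraries in 27 of the 54, where 27.8% of all tested genes did, and above them in 5, where 28.3% did. At an unadjusted p under 0.05, edgeR gave 4 members higher, where 12.2% of all tested genes were, and 13 lower, where 10.6% were. DESeq2 called 3 members higher after adjustment (4.77% of all genes it adjusted) and 4 lower (3.12%). Both edgeR calls were lost when either labelled WT library was left out, with edgeR adjusted p of 0.345 and 0.395 for Hist1h2bc and 0.241 and 0.367 for Hist2h3c2.

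Labelled Hira KO replicate 2 was the lowest of the 4 libraries for 42 of the 54 members, where it was the lowest for 33.4% of all tested genes. The median over members of log2 (CPM + 0.5) was 2.53 and 2.50 in labelled WT, against 2.50 and 1.45 in labelled Hira KO. Relative to the labelled WT mean, the median member stood at -0.15 in labelled Hira KO replicate 1 and at -1.24 in replicate 2 on that log2 scale. By type the replicate 2 medians were -1.33 for H1, -1.18 for H2A, -1.19 for H2B, -1.30 for H3 and -1.29 for H4. The replicate 1 medians were -0.40, -0.43, 0.06, -0.19 and -0.09 in the same order. Without labelled Hira KO replicate 1, edgeR called 27 members lower (10.8% of all genes tested) and 2 higher (9.45% of all). Without labelled Hira KO replicate 2 it called 3 lower (3.07% of all) and 4 higher (3.89% of all). In both of these fits the lone labelled Hira KO library is assumed to vary like the labelled WT libraries.

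**Figure D2:**
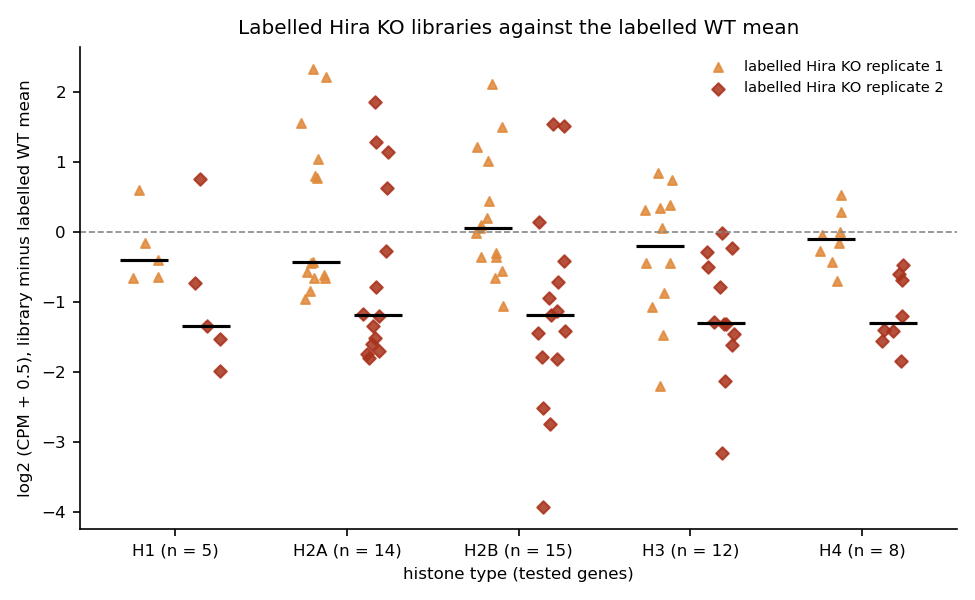
Each point is a tested member, placed by its log2 (CPM + 0.5) in labelled Hira KO replicate 1 (triangles) or replicate 2 (diamonds) minus the labelled WT mean (vertical axis), by histone type (horizontal axis). Black lines are medians, which lie between -0.43 and 0.06 in replicate 1 and between -1.33 and -1.18 in replicate 2.

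Among H1 genes, which encode the linker histones that bind between nucleosomes, Hist1h1e and Hist1h1b had the highest level. Hist1h1e stood at 40.4 and 27.7 CPM in labelled WT and 30.1 and 13.0 CPM in labelled Hira KO, so that the groups overlapped (log2 fold change -0.66, SE 0.42, and -0.18 without labelled Hira KO replicate 2). Hist1h1b stood at 38.4 and 30.7 against 21.8 and 11.7 CPM, without overlap (-1.04, SE 0.31, edgeR adjusted p 0.119). Hist1h1a was the H1 gene with the closest replicates, at 15.1 and 13.9 against 9.07 and 8.53 CPM. Both its labelled Hira KO libraries were low (-0.72, SE 0.24, edgeR adjusted p 0.135). Hist1h1d stood at 15.7 and 9.47 against 9.12 and 2.70 CPM (-1.08, SE 0.59, edgeR adjusted p 0.330). Its log2 fold change was -0.47 when labelled Hira KO replicate 2 was left out. Hist1h1c, another linker histone gene, was at 7.36 and 4.65 against 9.17 and 10.3 CPM, higher in both labelled Hira KO libraries (0.69, SE 0.32, edgeR adjusted p 0.249). None of the 5 tested H1 genes was called by edgeR, with 2 lower at an unadjusted p under 0.05, where 10.6% of all genes tested were. DESeq2 called 1 lower, Hist1h1b, where it called 3.12% of all genes lower. Hist1h1t, the linker histone of the testis, had 5 counts or fewer in each library and was not tested.

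H2A genes encode the partners of H2B in the nucleosome, and edgeR called none of the 14 tested. At an unadjusted p under 0.05 it gave 2 higher and 3 lower, where 12.2% and 10.6% of all genes tested were. DESeq2 called 2 higher, Hist1h2ad and Hist3h2a, where it called 4.77% of all genes higher. On log2 (TPM + 1) and log2 (TPM + 0.1), limma called the same genes higher and Hist1h2af and Hist2h2ab lower. On log2 (TPM + 1) it also called Hist1h2ai lower. Of all genes it called 2.41% higher and 1.61% lower on log2 (TPM + 1), and 2.31% and 1.51% on log2 (TPM + 0.1). Hist1h2ab stood at 13.7 and 13.8 CPM in labelled WT and 8.60 and 7.81 CPM in labelled Hira KO (log2 fold change -0.74, SE 0.24, edgeR adjusted p 0.131). Its labelled Hira KO libraries were close to each other and both below labelled WT. Hist2h2ac stood at 12.7 and 10.1 against 8.34 and 3.67 CPM, also without overlap (-0.92, SE 0.41, edgeR adjusted p 0.235). Hist1h2ak split the labelled Hira KO pair, at 4.87 and 3.06 against 12.4 and 1.44 CPM, so that replicate 1 was the highest library and replicate 2 the lowest. Hist3h2a stood at 3.02 and 5.42 against 20.7 and 9.62 CPM, higher in both labelled Hira KO libraries (1.85, SE 0.46, edgeR adjusted p 0.0855). Its gene model of 2146 bases is longer than the RefSeq gene body of 508 bases, which overlaps Trim17, and without strand their reads cannot be told apart. Hist1h2ad had no count in labelled WT and 2.02 and 1.32 CPM in labelled Hira KO. Its edgeR adjusted p was 0.0528. Setting each labelled WT library to 3 counts, an assumed value, gave a 10.4-fold rise, which is not a lower bound. RSEM's TPM intervals reached up to 2.11 and 1.63 for the labelled WT libraries. For the labelled Hira KO libraries the intervals began at 5.06 and 2.15 TPM. RSEM's posterior SD was 19.6% and 20.2% of its posterior mean count for labelled Hira KO, against 126% and 112% for labelled WT. In labelled WT that mean was thus above 0, although the expected count was 0.

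H2B genes held the member called higher. Hist1h2bc stood at 5.56 and 4.87 CPM in labelled WT and 15.6 and 15.9 CPM in labelled Hira KO (5.21 ± 0.487 and 15.8 ± 0.156 CPM, SD, n = 2 each). The groups were far apart relative to their spread, and replicate 2 was not low here. The log2 fold change was 1.59 (SE 0.25, 95% interval 1.0 to 2.2, edgeR adjusted p 0.0378). Its gene lies at chr13:23684199-23692480, a RefSeq body of 8282 bases with a model of 736 bases in the deposited files.

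edgeR called none of the other H2B genes, and DESeq2 called Hist1h2bp. Hist1h2bl stood at 25.5 and 22.9 against 25.2 and 6.67 CPM, and Hist1h2bb at 13.1 and 27.4 against 20.4 and 0.781 CPM. In both, labelled Hira KO replicate 1 lay within the labelled WT range and replicate 2 below it (edgeR adjusted p 0.637 and 0.789). Hist1h2bf stood at 19.3 and 21.7 against 15.9 and 9.08 CPM, without overlap (-0.71, SE 0.29, edgeR adjusted p 0.206). Hist1h2bp was low in both labelled Hira KO libraries, at 14.3 and 17.8 against 7.46 and 5.71 CPM (-1.28, SE 0.27). It missed the threshold in edgeR (adjusted p 0.0614) and passed it in DESeq2 (adjusted p 0.00954). Hist1h2bj stood at 9.53 and 17.7 against 8.08 and 3.37 CPM (-1.24, SE 0.49, edgeR adjusted p 0.197).

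**Figure D3:**
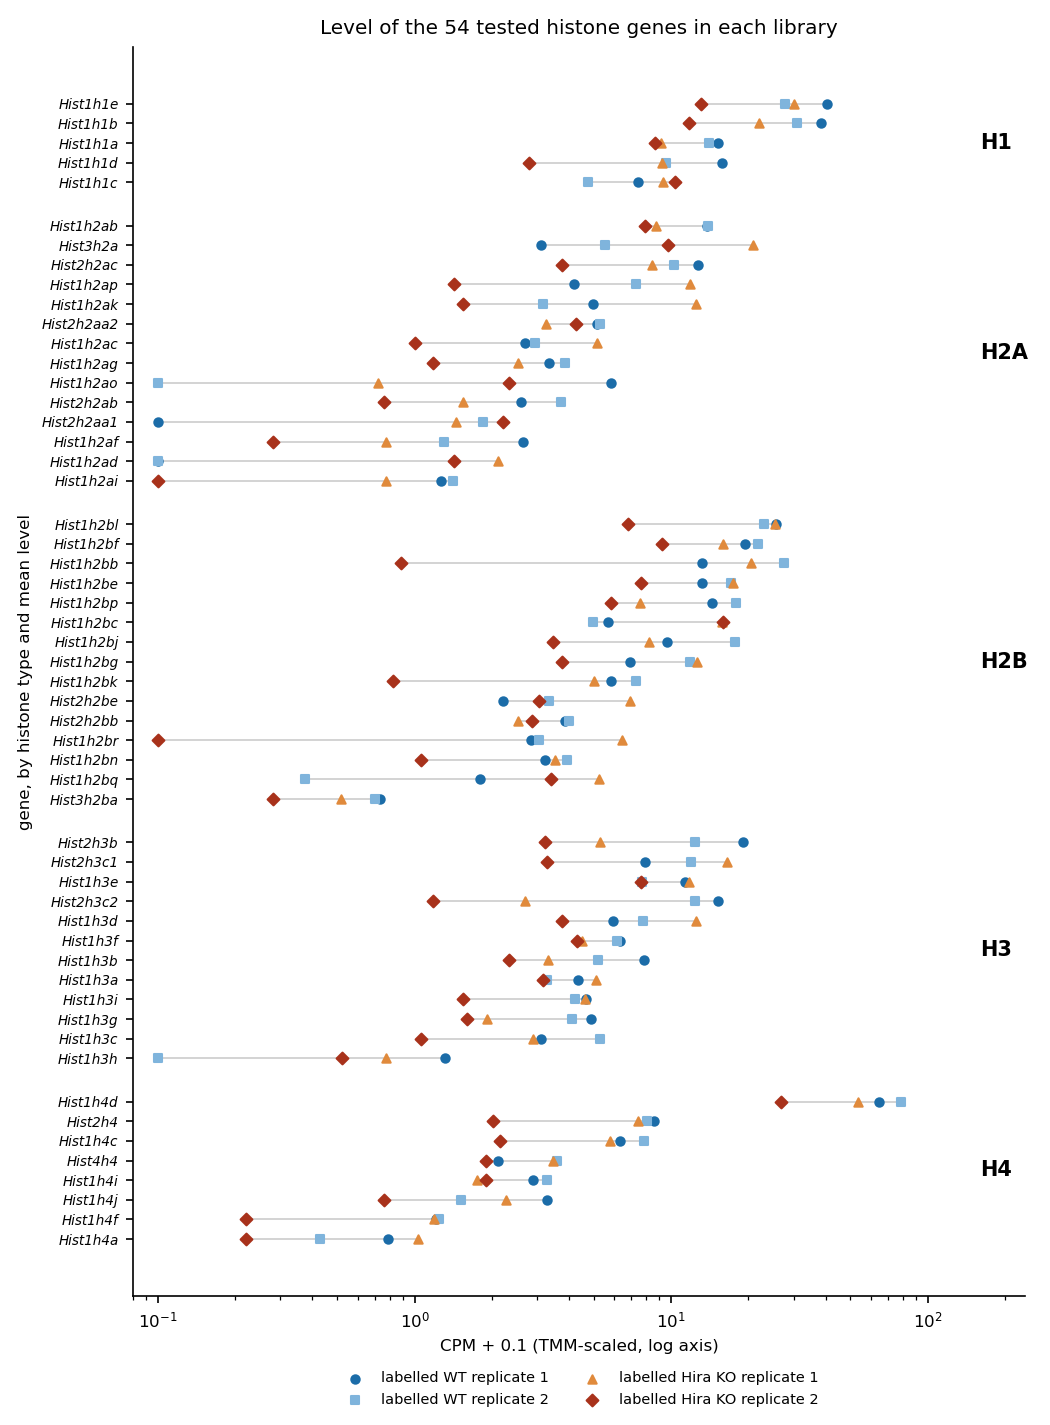
TMM-scaled CPM plus 0.1 on a log axis (horizontal) for the 54 tested members (rows, by type and mean level), with 1 marker per library and a grey line over the range. Labelled Hira KO replicate 2 is the lowest marker in 42 rows. Hist1h2bc and Hist3h2a have both labelled Hira KO markers to the right of both labelled WT markers.

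H3 genes held the member called lower, in the Hist2 cluster. Hist2h3c2 stood at 15.1 and 12.3 CPM in labelled WT and 2.59 and 1.08 CPM in labelled Hira KO (13.7 ± 1.96 and 1.84 ± 1.07 CPM, SD, n = 2 each). The groups did not overlap, and both labelled Hira KO libraries were low. The log2 fold change was -2.88 (SE 0.43, 95% interval -3.90 to -1.86, edgeR adjusted p 0.0347). Hist2h3b, the H3 gene of highest TPM, stood at 19 and 12.3 against 5.18 and 3.13 CPM (-1.91, SE 0.36). It just missed the threshold in edgeR (adjusted p 0.0508) and passed it in DESeq2 (adjusted p 0.00035), in limma on both TPM scales and in edgeR with the replicate number as a block or without the low-count filter. Hist2h3c1, the near-identical partner of Hist2h3c2, went the other way in labelled Hira KO replicate 1, at 7.83 and 11.8 against 16.4 and 3.19 CPM (log2 fold change near 0, SE 0.79).

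Reads of Hist2h3c1 and Hist2h3c2 were split between the copies by RSEM, so the levels of the single copies depend on that split. The expected counts of Hist2h3c2 were 285, 225, 50.1 and 17.6 in labelled WT replicates 1 and 2 and labelled Hira KO replicates 1 and 2. Those of Hist2h3c1 were 148, 216, 317 and 53.3, with deposited posterior SDs of 45.2, 58.3, 104 and 18. Summed over the 2 copies the counts were 432, 441, 367 and 71.0, or 22.9 and 24.1 against 19 and 4.27 CPM. Labelled Hira KO replicate 1 was then close to labelled WT, and replicate 2 alone was far below. With Hist2h3b added, the 3 genes summed to 41.9 and 36.4 against 24.2 and 7.39 CPM, so that both labelled Hira KO libraries stayed below labelled WT.

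**Figure D4:**
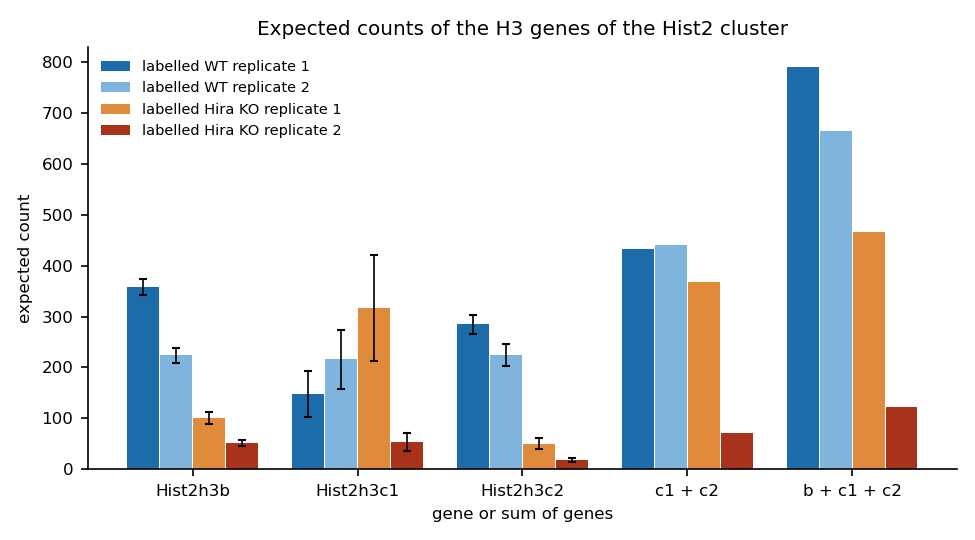
Expected counts (vertical axis) of the 3 H3 genes of the Hist2 cluster and of their sums (horizontal axis), 1 bar per library. Error bars are the posterior SD deposited with RSEM's estimates and reach 104 counts for Hist2h3c1, and the sums have none. In the sum of Hist2h3c1 and Hist2h3c2, labelled Hira KO replicate 1 is at 367 counts, near the 432 and 441 counts of labelled WT.

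Of the 9 H3 genes of Hist1, neither edgeR nor DESeq2 called any. At an unadjusted p under 0.05 edgeR gave 2 lower, where 10.6% of all genes tested were. In labelled Hira KO 4 were lower without overlap, where 27.8% of all genes tested were. Hist1h3g stood at 4.76 and 3.99 against 1.81 and 1.5 CPM (-1.40, SE 0.41, edgeR adjusted p 0.113). Hist1h3b stood at 7.73 and 5.09 against 3.21 and 2.22 CPM (-1.23, SE 0.40, edgeR adjusted p 0.129). limma called Hist1h3g on both TPM scales, and edgeR without the low-count filter called Hist1h3b. Hist1h3c and Hist1h3f were the other genes without overlap, with log2 fold changes of -1.11 (SE 0.59) and -0.52 (SE 0.31). In the other 5 genes the groups overlapped. Hist1h3d stood at 5.82 and 7.66 against 12.4 and 3.67 CPM, with labelled Hira KO replicate 1 highest and replicate 2 lowest. Hist1h3i stood at 4.55 and 4.10 against 4.51 and 1.44 CPM, low in labelled Hira KO replicate 2 only. Hist1h3e stood at 11.2 and 7.60 against 11.7 and 7.51 CPM, with each labelled Hira KO library next to a labelled WT library (log2 fold change 0.03, SE 0.33).

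H4 was dominated by Hist1h4d, which alone gave 469 and 441 TPM in labelled WT and 358 and 133 TPM in labelled Hira KO, more than any other member in every library. In CPM it stood at 64.8 and 78.5 against 53.3 and 26.6, without overlap (-0.84, SE 0.33, edgeR adjusted p 0.205). Its log2 fold change was -0.43 when labelled Hira KO replicate 2 was left out. Hist1h4c, the next in TPM, stood at 6.25 and 7.77 against 5.70 and 2.04 CPM (-0.85, SE 0.49, and -0.30 without that library). Hist1h4f stood at 1.11 and 1.15 against 1.09 and 0.120 CPM, low in labelled Hira KO replicate 2 only. No H4 gene was called by edgeR or DESeq2 (1 and 2 lower at an unadjusted p under 0.05), and 5 of the 13 were not tested for low counts. In edgeR 10.6% of all genes tested were lower at that unadjusted p.

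Other near-identical copies had uneven single values, and summing them brought the libraries closer only in part. Hist1h2ao was at 0 CPM in labelled WT replicate 2, but with its partner Hist1h2ap the sum was 9.79 and 7.17 against 12.4 and 3.55 CPM. Hist1h2bq and Hist1h2br, whose promoter windows differ at 0 of 300 bases, summed to 4.45 and 3.23 against 11.5 and 3.31 CPM. Hist2h2aa1 and Hist2h2aa2 summed to 5.03 and 6.95 against 4.51 and 6.25 CPM, and here labelled Hira KO replicate 2 was not the lowest. RSEM's posterior SD was under 10% of its posterior mean count in every library for 31 members, of which 29 were tested. Their median log2 fold change was -0.68, and labelled Hira KO replicate 2 was lowest in 23 of them. Over the 25 tested members with a larger SD the median was -0.65, and replicate 2 was lowest in 19.

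Members with long gene models had a higher median. The 10 members with a model of at least 1000 bases had a median log2 fold change of 0.08, with 6 above 0, and the 44 shorter tested members one of -0.73, with 10 above 0. Relative to the labelled WT mean, the long-model members had a median of 0.67 in labelled Hira KO replicate 1 and -0.70 in replicate 2, and the shorter ones -0.36 and -1.30. Over the 54 genes the Spearman correlation of model length with the log2 fold change was 0.33, a description over genes that share libraries and, in part, reads. Both length classes were lower in replicate 2 than in replicate 1, in 9 of 10 and 38 of 44 members.

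Genes that act on histone mRNAs or handle new histones were counted beside the members. Of all genes tested 49.1% were below 0, and at an unadjusted p under 0.05 edgeR gave 12.2% higher and 10.6% lower. DESeq2 called 4.77% of all genes higher and 3.12% lower. edgeR called none of 26 tested genes for histone mRNA processing, with 18 below 0 and a median log2 fold change of -0.31. At an unadjusted p under 0.05 there were 2 higher and 5 lower, and DESeq2 called 1 higher. Slbp stood at 68.3 and 60.0 against 61.7 and 42.1 CPM (-0.30, SE 0.21), and Npat at 84.0 and 88.1 against 73.4 and 66.9 CPM (-0.29, SE 0.15). Both were lowest in labelled Hira KO replicate 2, by less than the histone sums were. Of 16 transcription factors and cyclins that act on histone genes neither tool called any, with 13 below 0, a median of -0.34 and 3 lower at an unadjusted p under 0.05 in each. Of 16 replication-coupled chaperone genes edgeR called none and DESeq2 1 lower, all 16 were below 0 (6 at an unadjusted p under 0.05), and the median was -0.42. Chaf1a, the large subunit of the chaperone CAF-1, stood at 47.9 and 44.6 against 28.1 and 22.1 CPM (-0.88, SE 0.19, edgeR adjusted p 0.0632), and Chaf1b, another of its subunits, at 21.2 and 28.3 against 24.1 and 18.2 CPM.

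S-phase genes outside the histones were below 0 in 40 of 40, with a median log2 fold change of -0.49. Of all genes tested, 49.1% were below 0. edgeR called none of the list, with 24 lower at an unadjusted p under 0.05 (10.6% of all genes), and DESeq2 called 7 lower (3.12% of all). Against the labelled WT mean they stood at -0.38 in labelled Hira KO replicate 1 and -0.63 in replicate 2. The histone members, at -0.15 and -1.24, differed more between these libraries than the S-phase genes did. Rrm2, a subunit of ribonucleotide reductase, stood at 72.7 and 68.3 against 34.1 and 19.1 CPM (-1.40, SE 0.27, edgeR adjusted p 0.0563). It was low in both labelled Hira KO libraries. The difference between the lists was not tested.

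Replication-independent histone variants did not share the low level of labelled Hira KO replicate 2 throughout. That library was the lowest for 5 of the 11 tested variant genes, where it was for 33.4% of all tested genes. The H2A.Z genes H2afz and H2afv together were lowest there, at 341 and 327 CPM in labelled WT and 321 and 240 CPM in labelled Hira KO. H3f3b, which encodes H3.3, was highest in that library, at 151 and 141 CPM in labelled WT and 251 and 484 CPM in labelled Hira KO (1.33, SE 0.31, edgeR adjusted p 0.0847). H3f3a, which encodes the same protein, stood at 122 and 129 against 100 and 108 CPM. Summed replication-dependent H3 TPM over the TPM of H3f3a and H3f3b gave a ratio of 1.10 and 0.919 in labelled WT, against 0.683 and 0.203 in labelled Hira KO, without overlap. Of the 11 tested variant genes edgeR called none, with 2 higher at an unadjusted p under 0.05 (12.2% of all genes). DESeq2 called 1 higher (4.77% of all), and 7 were below 0 (49.1% of all).

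Markers of other cell types moved between the groups. Over all genes, edgeR called 1.32% higher and 0.48% lower, and DESeq2 4.77% and 3.12%. At an unadjusted p under 0.05 edgeR gave 12.2% higher and 10.6% lower. Of 8 B-cell and plasma-cell markers edgeR called 3 higher in labelled Hira KO and none lower (2 lower at an unadjusted p under 0.05), and DESeq2 called 3 higher and 2 lower. Their summed level was 691 to 936 TPM in labelled WT and 3644 to 8377 TPM in labelled Hira KO. Of 8 granulocyte and monocyte markers edgeR called 1 lower, and DESeq2 1 lower and 1 higher (2422 to 4658 against 1093 to 2250 TPM). Of 8 erythroid markers neither edgeR nor DESeq2 called any (1 and 2 lower at an unadjusted p under 0.05, 67.0 to 98.8 TPM against 54 TPM in both labelled Hira KO libraries). Of 7 T-cell and NK-cell markers both tools called 1 higher (110 to 157 against 43.6 to 145 TPM). LSK markers were present, 9 of 9 tested, with 2 called higher by edgeR and 3 by DESeq2, and sums of 384 to 462 against 578 to 606 TPM. No listed marker was at 0 in all 4 libraries. The part of these cells, of depth and of AY036118 in the histone levels was not tested.

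ATAC-seq showed open chromatin at nearly all members in both groups. Within 500 bp of the gene body, 64 of 65 members had a called region in all 4 libraries. The same held for 62.9% of all protein-coding genes and for 7.36% of protein-coding genes up to 1 kb long. Members were not taken out of these shares. Most members have a gene body under 1 kb, so the share among the other short genes was below 7.36%. Neighbouring members shared regions, so that the highest regions of the 64 members were 37 to 40 distinct intervals per library. At Hist2h3c2 the region lay at chr3:96236910-96240844 in labelled WT replicate 1 and covered the promoter window printed above. Its fold enrichment by the authors' peak caller was 103 and 138 in labelled WT, against 93.7 and 105 in labelled Hira KO. In each library this was above at least 97.5% of the other peaks of the list. At Hist1h2bc the values were 104 and 100 against 77.9 and 96.4. Read depth was unknown, so these values rank peaks within a list and show no change between lists.

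The members' regions ranked high in their own lists. The median member stood at the 96.8 and 97.6 percentile of fold enrichment in labelled WT and at the 95.7 and 97.1 percentile in labelled Hira KO, and 61 members were in the top 10% of each list. Germline histone genes were the exceptions. Hist1h2aa and Hist1h2ba, the testis H2A and H2B genes, share a region at the 83.2, 75.2, 77.7 and 40.8 percentile in the same order of libraries. Hist1h1t had a region in the labelled Hira KO libraries only, at the 18.2 and 24.6 percentile. These 3 genes were also nearly silent, with at most 5 counts in any RNA library. Hist3h2ba, at the 82.1 to 88.8 percentile, was also below the other members, with 12.0 counts or fewer. Low counts did not go with a low rank throughout. Hist1h2ae, with at most 8.19 counts, stood at the 95.3 to 97.9 percentile. Hist1h4h, with at most 9.81 counts, stood at the 96.8 to 98.4 percentile.

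**Figure D5:**
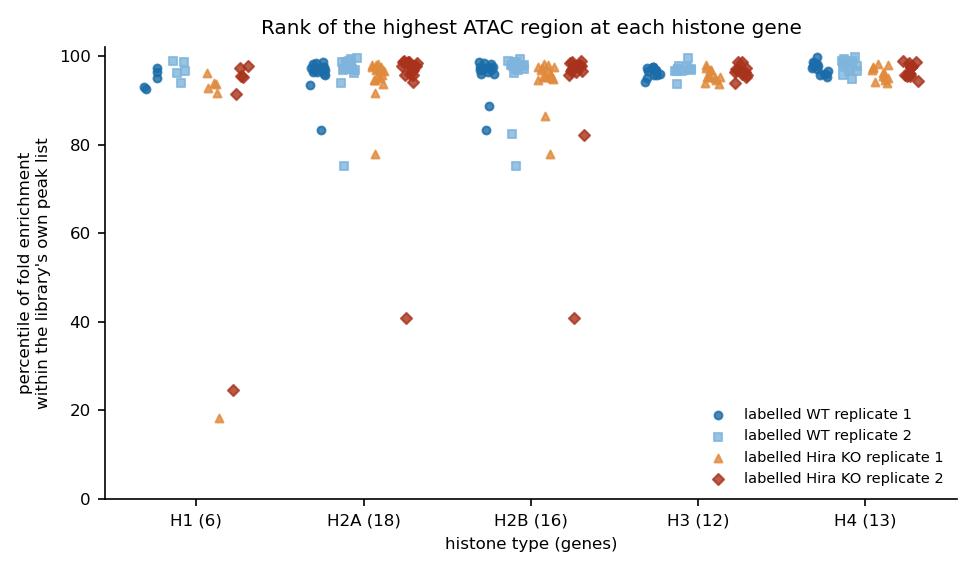
Percentile of fold enrichment, within the library's own peak list (vertical axis), of the highest ATAC region within 500 bp of each member, by histone type (horizontal axis) and library (markers). Most members lie above the 90th percentile in each library, and the lowest points are the testis genes Hist1h1t, Hist1h2aa and Hist1h2ba.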

How the data were processed

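The deposited files of 4 RNA and 4 ATAC libraries of LSK cells were used, and titles gave groups and replicates. Per the labels' protocols, NuGEN's Ovation kit, which primes with random and oligo(dT) primers, and Nextera XT made the RNA libraries. No label or file says that strand was kept. RSEM 1.3.0, STAR 2.5.3a, HTSeq and DESeq2, and MACS2 2.1.1, Bowtie2 2.2.9, Trim Galore 0.4.5 and bedtools stand in the submitters' processing notes with the build GRCm38, but not the step each served.

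Expected counts, as deposited, are RSEM estimates that divide reads among similar genes without normalization. The deposited TPM are scaled for length and to 1 total per library. RSEM's posterior SDs, per the file headers, are deposited beside them. The peak lists hold the authors' fold enrichment and -log10 q-value per peak, called per library. No depth comes with them.

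Symbols were found for 45143 of 45706 gene IDs. All 65 members matched the RefSeq table of GRCm38.p6. Rounded expected counts were tested with edgeR 4.0.16 in R 4.3.3 (filterByExpr, TMM, robust quasi-likelihood F test, genotype label as the only term, 2-sided) with Benjamini-Hochberg adjustment over 16258 genes and a threshold of 0.05. The common biological coefficient of variation was 27.8%. Libraries of 1 group differed by more than sampling noise (chi-square per gene 49.1 in labelled WT and 66.2 in labelled Hira KO). The 65 members took 3571 to 9235 counts per library, so genes of low count are imprecise. Sums of TPM used all members. Library ratios used log2 (CPM + 0.5). The edgeR step and the peak overlap were tested on simulated data. Alternatives comprised DESeq2 1.42.0, limma 3.58.1 on log2 TPM, other filters and scalings, a replicate block and leaving out each library.

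Named genes were Hira, every called member, the 3 members of highest mean TPM per type, the 4 largest rises and 4 largest falls among members whose average log2 CPM reached 3, and genes of the related lists by p-value. Genes outside this rule (Hist1h1c, Hist1h1t, Hist1h2ad, Hist1h2ae, Hist1h2af, Hist1h2ai, Hist1h3b, Hist1h3c, Hist1h3f, Hist1h3g, Hist1h4h, Hist2h2ab, Hist3h2ba, the testis genes and the copy pairs) were chosen after their values were seen. So were the length split at 1000 bases, the posterior SD split at 10%, the printed promoters and the 8 motifs. The members and lists were chosen with earlier results of these data known.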

Additional observations from a re-analysis of the deposited data

How the results depend on the processing

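The counts of called members moved with the processing. Members called higher (1) and lower (1) were 3 and 4 with DESeq2 (4.77% and 3.12% of all genes), 4 and 10 without a low-count filter (4.06% and 3.42%), 3 and 9 with limma on log2 (TPM + 1) (2.41% and 1.61%), and 4 and 7 on log2 (TPM + 0.1) (2.31% and 1.51%). Hist1h2bc and Hist2h3c2 were called in all of these and with DESeq2's size factors or without mitochondrial genes, where no other member was. With the replicate block 2 were called higher and 3 lower (2.26% and 1.04% of all genes). The labels give same-numbered libraries no more than a shared number. Over the tested genes, the deviations of the replicate 1 libraries from their group means correlated at 0.0609. With 2 libraries per group the replicate 2 deviations mirror these. The value thus cannot show whether same-numbered libraries share a batch. Leaving out 1 library in turn gave 0 to 4 higher and 0 to 27 lower, with 0 of either by edgeR without labelled WT replicate 1 or 2 (at an unadjusted p under 0.05, 5 and 5, and 4 and 8). In those fits edgeR called 3 and 1, and 1 and 1, of all genes. The median of all genes was 0.13 with DESeq2 and without a filter, against 0.01.

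Limits are 2 libraries per group, reads shared among copies and low counts. The members' median log2 fold change was below 0 in every alternative, at -0.88 to -0.67 without leaving out a library and -1.55 to -0.17 with 1 left out. The log2 ratio of summed TPM ranged from -1.75 to -0.12 with 1 library left out. The number of members with an open region in all ATAC libraries was 57 to 65, the lowest with promoter windows alone (60 members have one), an alternative chosen after the data were seen.

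Directions changed for members near 0 or resting on 1 library. With 1 library left out, the H2A sum ranged from -1.45 to 0.22, Hist1h2ak from -1.47 to 1.63, Hist1h2bl from -1.88 to 0.053, Hist1h2bb from -4.70 to 0.0041, Hist1h3d from -0.90 to 0.87, Hist1h3i from -1.60 to 0.053, Hist1h3e from -0.34 to 0.32 and Hist2h3c1 from -1.64 to 0.74. The lowest value came in each case without labelled Hira KO replicate 1. The highest came without replicate 2, except for Hist1h3e (without labelled WT replicate 1). On log2 (TPM + 1) and log2 (TPM + 0.1) Hist1h3d was -0.087 and -0.11, Hist1h3e -0.070 and -0.075, and Hist2h3c1 -0.31 and -0.45. Hist2h3c1 was also -0.020 with DESeq2, -0.0024 with its size factors, -0.0046 without a filter and -0.35 with the replicate block. The cause of these changes was not tested.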
